A study of Mus musculus with 18 samples.

Results

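The 10 Kruppel-like factor genes Klf2, Klf3, Klf4, Klf5, Klf6, Klf7, Klf9, Klf10, Klf13 and Klf15 were followed in mouse embryonic fibroblasts at 6 times after a pulse of dexamethasone. They were taken as the probe sets that the platform annotation gives to exactly 1 of these symbols. All 10 genes had such a probe set, 1 each, among 19938 genes tested and 35556 probe sets in the table. Klf4 fell at 34 h, 40 h and 46 h against 22 h, to a level 37.4% lower at 46 h, while Klf9, Klf5, Klf13 and Klf3 were 25.2%, 29.2%, 24.0% and 15.8% higher at 46 h. These percentages are on the scale of intensity plus 16 used throughout. No change at 46 h passed the test for Klf2, Klf6, Klf7, Klf10 and Klf15.

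Total RNA was measured on 18 Affymetrix whole-transcript expression arrays, 3 at each of 22 h, 26 h, 30 h, 34 h, 40 h and 46 h. All cells were wild type C57BL/6 fibroblasts, grown from embryos of embryonic day 13 after head and liver were taken off, and all had received 100 nM dexamethasone, a synthetic glucocorticoid, for 2 h. Such a pulse sets the circadian clocks of cultured cells to a common phase, and the series was described as 1 circadian cycle. The labels name 3 biological replicates a time and say that the fibroblasts came from 2 mice, and p-values here reflect only how much such samples vary, which may be technical. No array of untreated cells or of cells within the pulse was analysed here, so each gene is compared with its own level at 22 h. The 5 comparisons with 22 h share its 3 arrays.

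Kruppel-like factors are transcription factors that bind GC-rich DNA and CACCC boxes through zinc fingers at their carboxyl end, and their amino ends recruit different partners. Klf3 recruits the CtBP corepressors, Klf9, Klf10 and Klf13 recruit the Sin3A corepressor and its histone deacetylases, and Klf2, Klf4, Klf5, Klf6 and Klf7 act mainly as activators that can recruit acetyltransferases. Klf9 and Klf15 are direct targets of the glucocorticoid receptor, and both have been tied to circadian output in other tissues.

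Promoters of the genes that carry the time courses described here are shown to place the motifs searched. The RefSeq promoter table (assembly GRCm38.p6) held 8 of the 10 genes, all but Klf5 and Klf10. Each sequence is the 250 bases before the annotated start, read 5′ to 3′ along the gene. Capitals mark the E-box CACGTG, bound by the CLOCK and BMAL1 pair among others, the CACCC box and the CCAAT box, on either strand. Klf4 lies at chr4:55532476-55532725 on the minus strand, Klf3 at chr5:64803271-64803520 on the plus strand, and Klf9 at chr19:23140976-23141225 on the plus strand. Klf13 lies at chr7:63938916-63939165 on the minus strand, and Klf15 at chr6:90462326-90462575 on the plus strand.
Klf4 promoter: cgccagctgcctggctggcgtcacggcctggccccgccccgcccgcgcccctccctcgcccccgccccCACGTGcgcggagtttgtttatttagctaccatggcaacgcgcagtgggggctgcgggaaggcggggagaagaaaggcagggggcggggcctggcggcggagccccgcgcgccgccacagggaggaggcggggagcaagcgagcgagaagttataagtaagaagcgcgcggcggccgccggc
Klf3 promoter: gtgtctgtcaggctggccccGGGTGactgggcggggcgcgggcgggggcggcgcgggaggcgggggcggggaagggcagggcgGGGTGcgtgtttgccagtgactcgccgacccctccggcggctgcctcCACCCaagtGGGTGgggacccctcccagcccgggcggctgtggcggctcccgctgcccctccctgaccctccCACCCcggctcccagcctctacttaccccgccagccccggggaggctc
Klf9 promoter: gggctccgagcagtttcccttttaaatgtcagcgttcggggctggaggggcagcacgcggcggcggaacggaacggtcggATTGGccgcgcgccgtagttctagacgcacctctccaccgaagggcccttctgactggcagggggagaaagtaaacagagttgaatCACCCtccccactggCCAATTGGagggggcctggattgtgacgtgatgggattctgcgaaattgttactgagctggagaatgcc
Klf13 promoter: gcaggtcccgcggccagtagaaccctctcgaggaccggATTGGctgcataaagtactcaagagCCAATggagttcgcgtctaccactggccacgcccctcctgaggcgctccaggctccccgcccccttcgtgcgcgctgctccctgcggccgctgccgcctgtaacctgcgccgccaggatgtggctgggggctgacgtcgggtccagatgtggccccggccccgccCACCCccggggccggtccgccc
Klf15 promoter: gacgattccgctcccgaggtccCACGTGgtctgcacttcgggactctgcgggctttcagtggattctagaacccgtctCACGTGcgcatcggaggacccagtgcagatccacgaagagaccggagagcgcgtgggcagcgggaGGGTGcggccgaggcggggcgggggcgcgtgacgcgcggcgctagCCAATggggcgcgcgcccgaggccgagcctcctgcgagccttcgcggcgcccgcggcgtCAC

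The E-box was found in 3 of the 8 promoters, against 7.15% of all 32851 promoters of the same 300 bases, which reach 50 bases past the start. Klf4 has it at -182 from the start, Klf6 at -43, and Klf15 at -228, -172 and -3, the last of which runs over the start. The CCAAT box was in 4 of 8 promoters (Klf6, Klf9, Klf13 and Klf15) and in 37.4% of all promoters; those of Klf9 at -69 and -66 overlap. The CACCC box, the kind of site that the family itself binds, was in 6 of 8 (all but Klf4 and Klf6) and in 57.5% of all promoters. The GC box GGGCGG was in 7 of 8, all but Klf9, and in 35.7% of all promoters. These windows hold more G and C than most: the 8 range from 58.3% to 76.7%, and the median of all promoters is 52.7%. Searched on both strands, the D-box TTATGTAA (0.938% of all promoters), the cyclic AMP response element TGACGTCA (1.79%), the CArG box (1.63%), the TATA box TATAAA (13.6%), the glucocorticoid receptor half-site AGAACA (19.0%) and the nuclear receptor half-site AGGTCA (16.3%) were in 0 of the 8. Motif matches are a description of these letters, and no binding was measured.

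Levels below are log2 of the deposited intensity plus 16 after quantile normalization, read within a gene only, since probe sets differ in brightness. Values at a time are given in the order of replicates 1, 2 and 3. Changes were tested with limma, with Benjamini-Hochberg adjustment over all 19938 genes and a threshold of 0.05. Over the 6 times, 5 of the 10 genes passed the F test (Klf3, Klf4, Klf5, Klf9 and Klf13), where 19.8% of all genes did. The median range between the highest and the lowest time mean was 0.23 over the 10 genes and 0.19 over all genes. At 40 h, 5 were higher than at 22 h (background 12.3%) and 1 was lower (9.15%). At 46 h, 4 were higher (11.5%) and 1 was lower (9.73%). At 46 h the median difference from 22 h was 0.17 over the 10 genes, against 0.03 for all genes. The count of the F test was 3, with Klf3 and Klf13 lost, without 22 h replicate 1, 22 h replicate 3, 30 h replicate 2, 46 h replicate 2 or 46 h replicate 3. All genes called by the F test were then 2762, 2631, 3508, 3313 and 2908, against 3957 with every array.

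**Figure D1:**
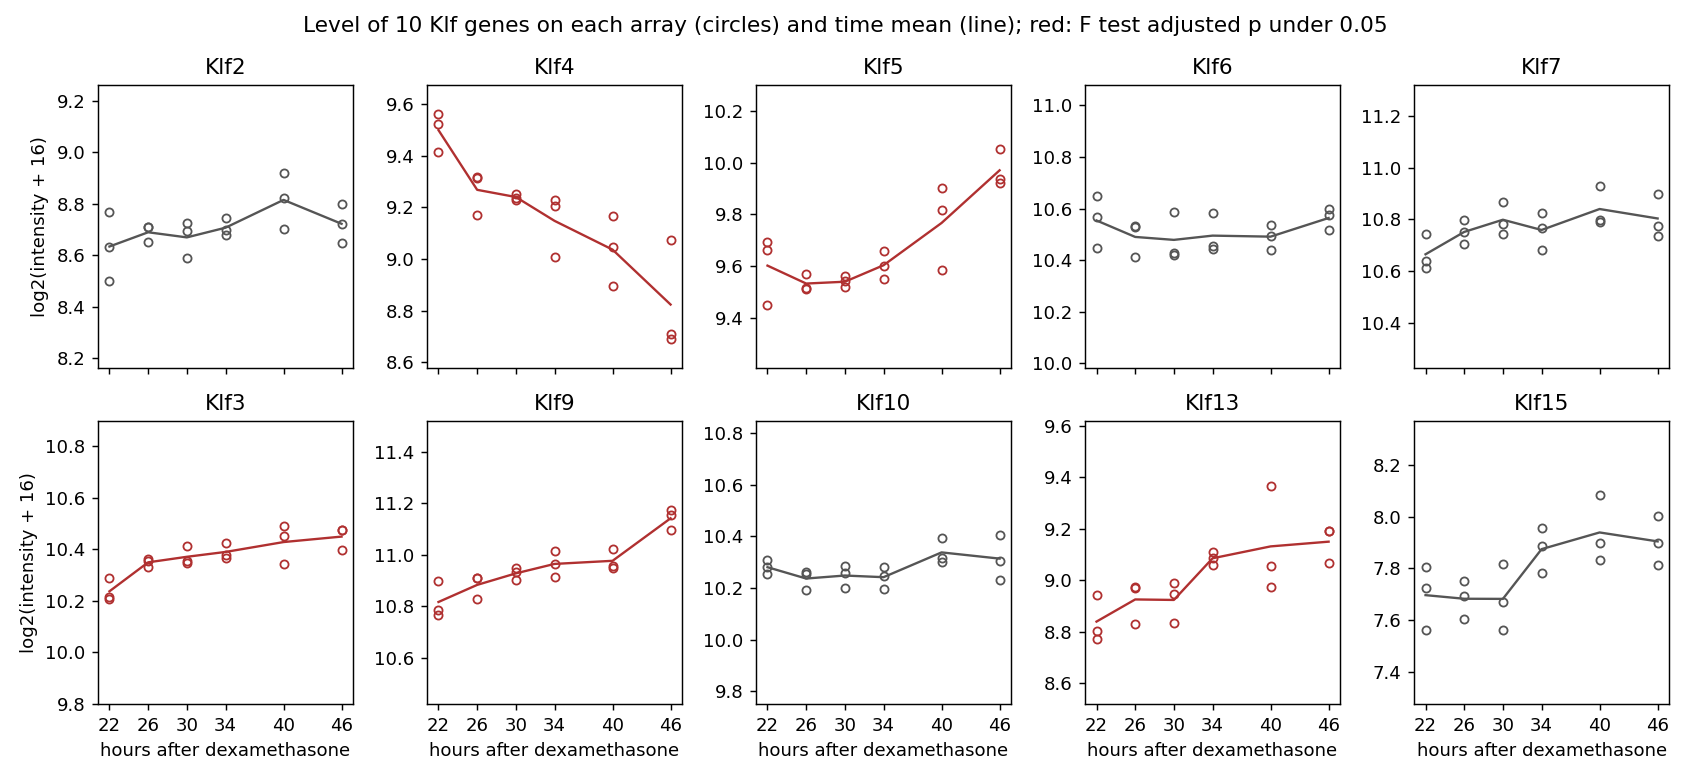
Level of each of the 10 genes as log2(intensity + 16) against hours after dexamethasone; circles are the 18 arrays, lines join the means of 3 arrays, and every panel spans the same height. Red panels passed the F test: Klf4 runs down from 9.50 to 8.82, Klf9 and Klf3 run up, Klf5 is high at 46 h, and the 3 arrays of Klf13 at 40 h lie far apart.

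Among the activators, Klf4 changed most. Klf4 is one of the factors used to reprogram fibroblasts to pluripotency and is linked to growth arrest. Its 3 arrays read 9.56, 9.42 and 9.52 at 22 h, 9.31, 9.17 and 9.32 at 26 h, then 9.25, 9.24 and 9.23 at 30 h. At the later times they read 9.23, 9.21 and 9.01 at 34 h, 9.05, 9.17 and 8.90 at 40 h, then 9.07, 8.71 and 8.69 at 46 h. Every array after 22 h lay below all 3 arrays of 22 h, and the time mean was lower at each of the 5 steps, as it was in 2.85% of all genes. The arrays of 26 h and 30 h overlapped, as did those of 34 h and 40 h and those of 40 h and 46 h, and at 46 h replicate 1 stood above the other two. Against 22 h, the fall was not past the threshold at 26 h (-0.23 ± 0.09 SE, limma adjusted p = 0.25) and 30 h (-0.26 ± 0.09, adjusted p = 0.13). It was -0.35 ± 0.09 at 34 h (adjusted p = 0.0237), -0.46 ± 0.09 at 40 h (adjusted p = 0.00217) and -0.68 ± 0.09 at 46 h (adjusted p = 4.56e-05). The change at 46 h has a 95% interval of -0.87 to -0.48, and it kept its call under each of the 27 other settings tried. The 34 h call, the only one of the 10 genes at that time (background 4.1% lower, 5.34% higher), was lost without 22 h replicate 1, 22 h replicate 3 or 34 h replicate 3.

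Klf5, which promotes proliferation of epithelial and smooth muscle cells, was level until 34 h and high at the end. Its arrays read 9.66, 9.69 and 9.45 at 22 h, 9.57, 9.52 and 9.51 at 26 h, then 9.52, 9.56 and 9.54 at 30 h. They read 9.66, 9.60 and 9.55 at 34 h, 9.90, 9.58 and 9.82 at 40 h, then 9.94, 9.92 and 10.06 at 46 h. The 46 h arrays lay above every array of the other times, whereas those of 40 h overlapped 22 h and 34 h through replicate 2. The change from 22 h was 0.37 ± 0.07 at 46 h (limma adjusted p = 0.0018, 95% interval 0.21 to 0.53) and 0.17 ± 0.07 at 40 h (adjusted p = 0.125). Without 40 h replicate 2 the 40 h value of Klf5 was 0.26 and passed (adjusted p = 0.0125). The Klf5 call at 46 h held under each of the 27 other settings.

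Klf7, which acts in neurons and holds back adipocyte differentiation, had arrays of 10.61, 10.74 and 10.64 at 22 h, 10.80, 10.71 and 10.75 at 26 h, then 10.78, 10.87 and 10.75 at 30 h. It read 10.68, 10.77 and 10.83 at 34 h, 10.93, 10.80 and 10.79 at 40 h, then 10.74, 10.90 and 10.77 at 46 h. The 30 h and 40 h arrays lay above those of 22 h, the other times overlapped them, and no 2 neighbours in the order of its time means were apart. Its rise at 40 h was 0.18 ± 0.06 (limma adjusted p = 0.0479), a call lost in 18 of 27 other settings, and at 46 h the difference was 0.14 ± 0.06 (adjusted p = 0.117).

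Klf2, which keeps endothelial cells and T cells quiescent, ranged over the 18 arrays from 8.50 to 8.92, with overlapping arrays at every time. It differed from 22 h by 0.18 ± 0.07 at 40 h (limma adjusted p = 0.071) and by 0.09 at 46 h, with a 95% interval of -0.06 to 0.23. Klf6, which is induced by injury and serum, ranged from 10.41 to 10.65, and its 46 h difference was 0.01 with an interval of -0.12 to 0.14. The sign of that Klf6 difference turned under some settings, so the gene has no direction here.

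Klf3, the CtBP-binding repressor, had slightly higher time means from 26 h on and passed as higher at 40 h and 46 h only. Its arrays read 10.21, 10.29 and 10.21 at 22 h, 10.36, 10.33 and 10.35 at 26 h, then 10.35, 10.35 and 10.41 at 30 h. They read 10.37, 10.38 and 10.42 at 34 h, 10.49, 10.34 and 10.45 at 40 h, then 10.40, 10.48 and 10.47 at 46 h. Every later array lay above the 22 h arrays, and from 26 h on each time overlapped its neighbours. The time mean was higher at each of the 5 steps, as it also was for Klf9, where 2.73% of all genes did so. The differences from 22 h were 0.11 ± 0.05 at 26 h (limma adjusted p = 0.291) and 0.15 ± 0.05 at 34 h (adjusted p = 0.0558). They passed at 40 h (0.19 ± 0.05, adjusted p = 0.00985) and at 46 h (0.21 ± 0.05, adjusted p = 0.00433). The Klf3 call at 46 h held under each of the 27 other settings, while its F test call was lost in 11 of 26.

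Among the Sin3A-binding repressors, Klf9 climbed step by step. Klf9 restrains proliferation and is induced by glucocorticoids. Its arrays read 10.79, 10.90 and 10.76 at 22 h, 10.91, 10.91 and 10.83 at 26 h, then 10.95, 10.93 and 10.90 at 30 h. They read 10.91, 10.96 and 11.01 at 34 h, 11.02, 10.95 and 10.96 at 40 h, then 11.10, 11.17 and 11.15 at 46 h. From 30 h on every array lay above those of 22 h, the times from 26 h to 40 h overlapped their neighbours, and the 46 h arrays stood above all others. The rise was 0.16 ± 0.05 at 40 h (limma adjusted p = 0.0295) and 0.32 ± 0.05 at 46 h (adjusted p = 0.000133, 95% interval 0.22 to 0.43). The 46 h call of Klf9 held under each of the 27 other settings, while its 40 h call was lost in 6 of 27, with a value of 0.10 (adjusted p = 0.107) on intensities as deposited.

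Klf13, which drives the late expression of a chemokine gene in T cells, passed as higher at 40 h and 46 h. Its arrays read 8.77, 8.94 and 8.80 at 22 h, 8.83, 8.97 and 8.97 at 26 h, then 8.99, 8.95 and 8.84 at 30 h. They read 9.06, 9.09 and 9.11 at 34 h, 9.37, 9.05 and 8.97 at 40 h, then 9.07, 9.19 and 9.19 at 46 h. The 34 h, 40 h and 46 h arrays lay above all of 22 h, and the 40 h arrays spread most because of replicate 1. The difference was 0.25 ± 0.08 at 34 h (limma adjusted p = 0.0723), and it passed at 40 h (0.29 ± 0.08, adjusted p = 0.0189) and 46 h (0.31 ± 0.08, adjusted p = 0.0124). Without 22 h replicate 1 the 46 h value of Klf13 was 0.28 (adjusted p = 0.0605) and without 22 h replicate 3 it was 0.29 (adjusted p = 0.0502), neither past the threshold. Without 40 h replicate 1 the 40 h value of Klf13 was 0.17 (adjusted p = 0.108).

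Klf10, a gene induced early by transforming growth factor beta, ranged from 10.19 to 10.40 over the 18 arrays, and at every time its arrays overlapped those of 22 h. The 46 h difference was 0.03, with a 95% interval of -0.07 to 0.14.

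Klf15, which controls gluconeogenesis and amino acid breakdown in liver and muscle, had higher time means from 34 h on. It was among the dimmer genes, with a mean level of 7.80 over all arrays against a median of 8.07 for all genes. Its arrays read 7.56, 7.72 and 7.80 at 22 h, 7.75, 7.60 and 7.69 at 26 h, then 7.56, 7.67 and 7.82 at 30 h. They read 7.89, 7.78 and 7.96 at 34 h, 7.90, 7.83 and 8.09 at 40 h, then 7.81, 8.00 and 7.90 at 46 h. The first 3 time means were alike and the last 3 were higher, with the arrays of 40 h and 46 h all above those of 22 h. At 46 h that margin was narrow (7.814 against 7.805), and the arrays of 46 h overlapped those of 30 h, which reached 7.816. Klf15 rose by 0.24 ± 0.08 at 40 h (limma adjusted p = 0.0463), a call lost in 11 of 27 other settings, and missed at 46 h (0.21 ± 0.08, adjusted p = 0.0865) and in the F test (adjusted p = 0.0513). With intensities as deposited Klf15 passed at 46 h (0.27, limma adjusted p = 0.0212). In that setting 6043 genes were called at 46 h against 4234, and the median difference of all genes was 0.06 against 0.03. The F test called Klf15 in 9 of 26 other settings. Its deposited intensities ran from 168 to 252, and at such values the constant of 16 added before log2 makes a change read smaller.

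The 40 h count rests partly on single arrays. It was 1, Klf4, without 40 h replicate 1 or with only the arrays of 22 h and 40 h in the fit, 2 without 22 h replicate 1 and 3 without 22 h replicate 3. All genes called fell too, from 4270 to 2517, 1877, 2273 and 2544 in these settings.

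**Figure D2:**
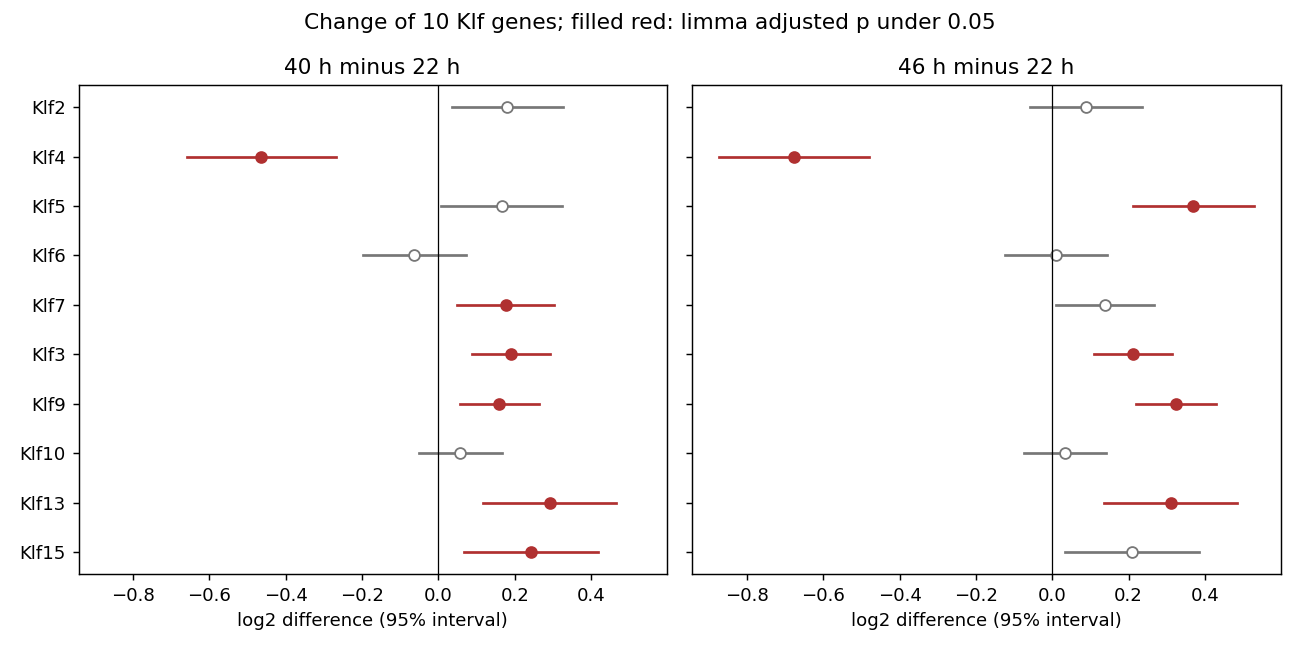
Change of each gene at 40 h (left) and 46 h (right) against 22 h on the log2 scale; points are limma estimates and bars 95% intervals, and filled red marks an adjusted p under 0.05. Klf4 is the 1 gene to the left of 0 that passed at both times, at -0.46 and -0.68, and Klf5 passed at 46 h only.

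At the first times little passed. At 26 h 0 of 10 genes were called by limma (background 2.19%) with 2 at an unadjusted p under 0.05, Klf3 and Klf4. At 30 h 0 of 10 were called (background 4.69%) with 4 at an unadjusted p under 0.05, namely Klf3, Klf4, Klf7 and Klf9.

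A rhythm was tested over the single cycle sampled, which cannot show that a pattern repeats. By the fit of a 24 h cosine, 0 of 10 genes were called by limma (background 0.828%), with 2 at an unadjusted p under 0.05. For Klf5 the fitted amplitude, the height of the cosine's crest over its midline in log2, was 0.16 ± 0.05 SE with the crest at 42.2 h (adjusted p = 0.146). For Klf15 it was 0.15 ± 0.04 with the crest at 39.3 h (adjusted p = 0.129). Klf4 fitted a cosine with an amplitude of 0.12 ± 0.08 (adjusted p = 0.565) and Klf9 with 0.04 ± 0.04 (adjusted p = 0.716), and in both the level at 46 h was apart from that at 22 h, which lies 24 h before it. When 34 h was set against the average of the first and last times, 0 of 10 passed limma (background 0.135%), and 1, Klf5, had an unadjusted p under 0.05 at -0.18 ± 0.06 (adjusted p = 0.278).

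Of the other 7 members of the family on the array, 2 passed the F test, a share near the 19.8% of all genes. Klf11, a Sin3A-binding relative of Klf10, had time means of 8.49, 8.59, 8.67, 8.63, 8.77 and 8.96 and rose by 0.28 ± 0.08 at 40 h (limma adjusted p = 0.0179) and 0.47 ± 0.08 at 46 h (adjusted p = 0.000331). Klf14, of the same group, rose by 0.31 ± 0.08 at 40 h (adjusted p = 0.0093) and by 0.31 ± 0.08 at 46 h (adjusted p = 0.00926). Klf8, which like Klf3 binds CtBP, differed by -0.22 ± 0.08 at 46 h (adjusted p = 0.0615), and Klf12, the third CtBP-binding member, by -0.09 (adjusted p = 0.345). Klf1, Klf16 and Klf17 differed by 0.16, 0.04 and 0.03 at 46 h, with adjusted p-values of 0.148, 0.795 and 0.822.

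**Figure D3:**
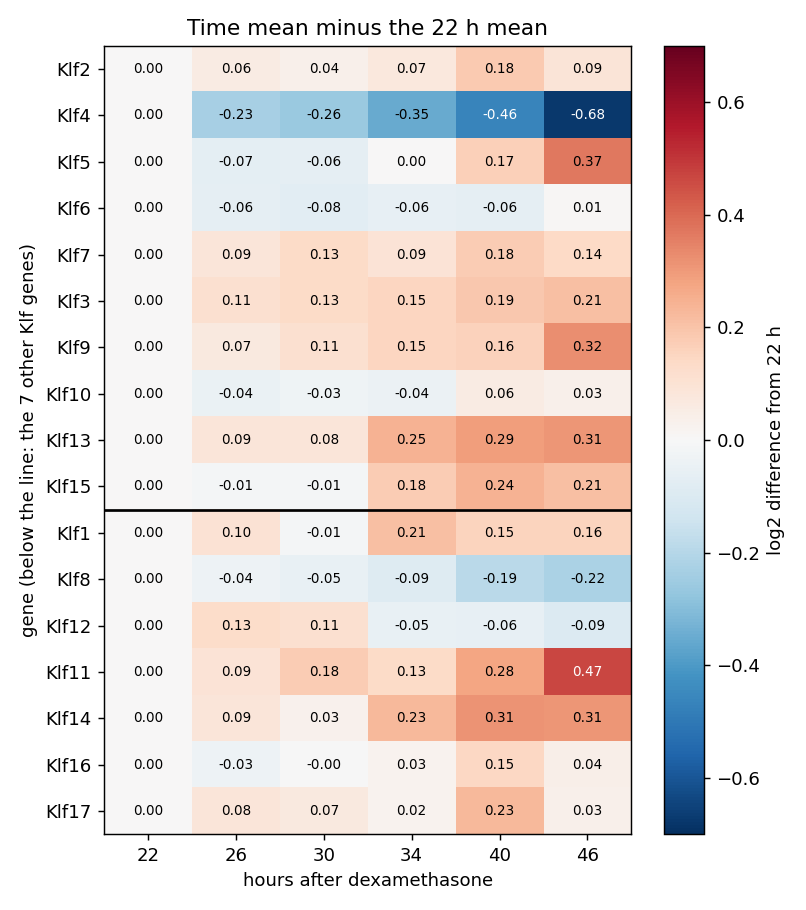
Difference of each time mean from the 22 h mean on the log2 scale, for the 10 genes above the line and the 7 other family members below it; red is higher and blue lower than at 22 h. Klf4 darkens steadily to -0.68, and Klf11 reaches 0.47 at 46 h.

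Of 8 measured Sp genes, the close relatives that bind the same GC boxes, 2 passed the F test, near the 19.8% of all genes. Sp4 fell by 0.23 ± 0.07 at 46 h (limma adjusted p = 0.022) and Sp9 rose by 0.21 ± 0.06 at 40 h (adjusted p = 0.0221). Of 10 corepressors and coactivators that the family recruits, 2 passed the F test, again near the 19.8% of all genes. These were the histone deacetylases Hdac1 and Hdac3, which fell at 46 h by 0.17 ± 0.04 (adjusted p = 0.00933) and 0.16 ± 0.05 (adjusted p = 0.02). Sin3a was the third of these genes lower at 46 h, at -0.17 ± 0.05 (adjusted p = 0.0262). Among 4 genes for proteins that mark Kruppel-like factors for degradation, 1 passed the F test (background 19.8%), the ubiquitin ligase subunit Fbxw7, which fell by 0.28 ± 0.06 at 40 h (adjusted p = 0.00611) and 0.26 ± 0.06 at 46 h (adjusted p = 0.00884). Fbxo32, a subunit of another ubiquitin ligase, was higher at 40 h (0.19 ± 0.06, adjusted p = 0.0245) and at 46 h differed by 0.05 ± 0.06 (adjusted p = 0.608). Besides Fbxw7, Smurf1 was the other gene lower at 46 h, at -0.13 ± 0.04 (adjusted p = 0.0472). Sin3a, Fbxo32 and Smurf1 were named after their values were seen.

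Of 17 genes that act upstream of the family, 2 passed the F test (background 19.8%), and 4 were higher (11.5%) and 0 lower (9.73%) at 46 h. Arntl, the gene of the clock factor BMAL1, was 8.94 at 22 h and peaked at 34 h at 9.64, and the rise at 46 h was 0.62 ± 0.10 (limma adjusted p = 0.000283). Tgfbr1, a transforming growth factor beta receptor, rose by 0.24 ± 0.07 at 46 h (adjusted p = 0.0168). Clock and Smad4, named after their values were seen, were the other two, at 0.21 ± 0.06 (adjusted p = 0.0175) and 0.17 ± 0.06 (adjusted p = 0.0418). The glucocorticoid receptor gene, Nr3c1, differed by 0.04 ± 0.07 (adjusted p = 0.746) and was likewise named outside the rule.

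Of 10 measured genes reported elsewhere as targets of these factors, 6 passed the F test (background 19.8%), and at 46 h 1 was higher (11.5%) and 3 were lower (9.73%). Thbd, the thrombomodulin gene activated by Klf2 and Klf4 in endothelium, rose by 0.57 ± 0.06 (limma adjusted p = 2.11e-06). Lgals3 fell by 0.58 ± 0.09 (adjusted p = 0.000106) and Smad7, an inhibitor of transforming growth factor beta signalling, fell by 0.30 ± 0.05 (adjusted p = 0.000163). Ccnd1, the cyclin D1 gene, was the third to fall, by 0.23 ± 0.06 (adjusted p = 0.00962), and was named after its values were seen. Tagln, a smooth muscle gene, passed the F test with a range of 0.33 (adjusted p = 0.0151), and its 46 h difference was 0.12 ± 0.08.

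Klf9 and Klf15 belong to the glucocorticoid-induced genes, and 10 others were listed. Of these 10, 5 passed the F test (background 19.8%), and at 46 h 4 were higher (11.5%) and 1 lower (9.73%). Dusp1, a phosphatase that turns off stress kinases, rose by 0.73 ± 0.11 (limma adjusted p = 0.000134), Per1, a clock repressor gene, by 0.33 ± 0.09 (adjusted p = 0.0167) and Pdk4 by 0.26 ± 0.06 (adjusted p = 0.00315). Sgk1 passed the F test (adjusted p = 0.0425) with a 46 h difference of 0.04 ± 0.09. Errfi1 was the fifth by the F test and rose by 0.14 ± 0.04 (adjusted p = 0.0309). Mt2, which did not pass the F test (adjusted p = 0.0707), was the gene lower at 46 h, at -0.22 ± 0.07 (adjusted p = 0.0295). Fkbp5 and Tsc22d3, the usual readouts of the receptor, differed at 46 h by -0.07 ± 0.07 (adjusted p = 0.542) and -0.03 ± 0.06 (adjusted p = 0.774). Both were lowest at 40 h, with time means -0.24 and -0.15 from 22 h. At 40 h 2 of the 10 listed genes were called higher (background 12.3%) and 1 lower (9.15%). Errfi1, Mt2, Fkbp5 and Tsc22d3 were named after their values were seen.

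Klf4 was the only one of the 10 genes with an F test call and a range of at least 0.5 between time means, so the genes most like it were sought. Likeness was the root mean square distance between 6 time means, each gene centred on its own mean, and the nearest 3 were Nav3 (distance 0.024 log2), neuron navigator 3, Mycn (0.025), a Myc family factor, and Pfkl (0.031), a glycolytic enzyme. At 46 h Nav3 stood at -0.64, Mycn at -0.64 and Pfkl at -0.67 from 22 h, beside -0.68 for Klf4. They were chosen for that pattern, so it was not tested.

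**Figure D4:**
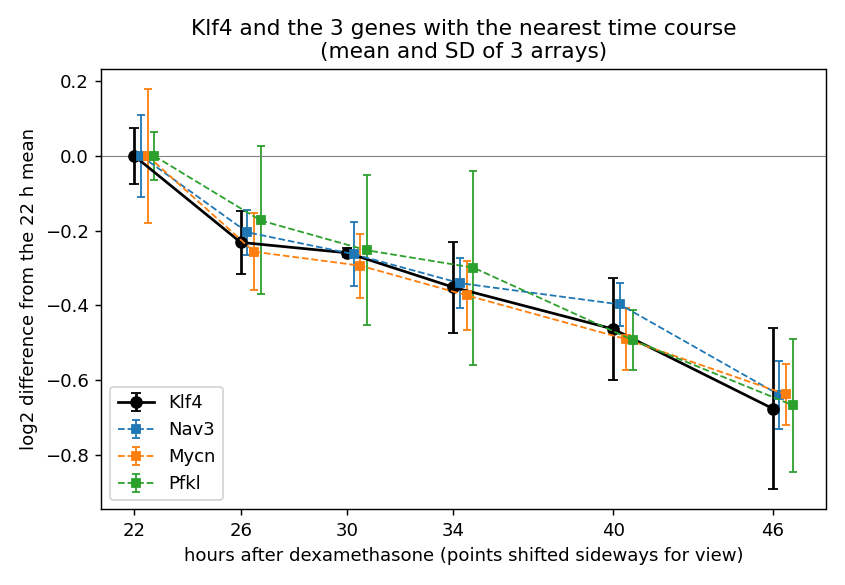
Time course of Klf4 and the 3 genes nearest to it, as log2 difference from the 22 h mean of each gene; points are means and bars SDs of 3 arrays. All 4 curves end between -0.64 and -0.68, and the bars of Pfkl are the widest at 26 h to 34 h.

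Marker lists describe the culture, and since probe sets differ in brightness their levels give no test of the labelled cell type. The 11 fibroblast markers ranged over all arrays from 7.14 to 13.55, the 5 smooth muscle markers from 7.30 to 13.45, and the 5 neural markers from 6.62 to 8.57. The 8 endothelium markers ranged from 6.06 to 8.13, the 8 epithelium markers from 6.45 to 8.42, the 6 macrophage markers from 5.63 to 8.25, the 4 adipocyte markers from 6.18 to 7.84 and the 4 skeletal muscle markers from 6.22 to 8.32. Markers of several cell types moved over the same times as the Klf genes. The mean of the fibroblast markers on an array was 11.60 to 11.70 at 22 h and 11.91 to 11.92 at 46 h, and at 46 h 6 of 11 were higher (background 11.5%) and 1 was lower (9.73%). Among them the matrix genes Lum and Col3a1 rose by 1.29 ± 0.11 and 0.66 ± 0.08, and S100a4 fell by 0.50 ± 0.12. Acta2, the smooth muscle actin gene, rose by 0.30 ± 0.06 at 46 h (limma adjusted p = 0.0011). The keratin gene Krt19 fell by 0.93 ± 0.09 (adjusted p = 1.55e-06) and the macrophage gene Cd14 by 0.30 ± 0.06 (adjusted p = 0.00154). Others of these lists went the other way at 46 h: Des of the smooth muscle list differed by -0.20, Cldn4 of the epithelium list by 0.25 and Ptprc of the macrophage list by 0.07. At 46 h 1 of 5 smooth muscle, 1 of 8 epithelium and 0 of 6 macrophage markers were higher (background 11.5%). Lower were 0, 2 and 1 of them (9.73%). At 40 h 1 of the 6 macrophage markers was called higher (background 12.3%) and 1 lower (9.15%). Of the 4 skeletal muscle markers, 3 were higher at 40 h (background 12.3%) and 3 at 46 h, and the mean of that list was 7.20 to 7.29 at 22 h and 7.42 to 7.49 at 46 h. S100a4 and Ptprc were named after their values were seen. The part of these markers in the Klf time courses was not tested. In RNA from a whole culture, fewer cells of a kind and less RNA per cell cannot be told apart.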

How the data were processed

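Whole-transcript kits labelled the RNA, per the labels' protocols. Each probe set's deposited value is an intensity on a linear scale. The submitters' processing notes name Affymetrix Expression Console 1.1 and PLIER 2.0; the settings and order of use are not given there. Accounts of the culture medium in the labels disagree.

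All 35556 probe sets were taken as log2(value + 16) and quantile normalized, since array quartiles differed by up to 0.154 log2. A gene was read from its brightest probe set with 1 symbol. Time means were fitted to all 18 arrays with limma 3.58.1 in R 4.3.3 (lmFit, eBayes), and a 24 h cosine was fitted separately. By rule, the genes to name were the 10 members, all other Klf genes and up to 4 called genes of each list by range. The rule added the 3 genes nearest to a called member with a range of at least 0.5. In the marker lists Pdgfra, Col1a1, Cldn5 and Ckm also met the rule and are not described. Genes outside the rule are marked in the text as named after their values were seen. The members and lists were chosen with earlier results of these data known. In data simulated with the real means and spreads of 19938 genes, 46% of changes of 0.3 and 84% of 0.5 between 22 h and 46 h were called. Far fewer genes were changed there, with 125 calls against 4234 in the data. The adjusted threshold was therefore harder to pass in the simulation, and its shares do not carry over to these data. The labels and headers used here give no batch. Alternatives covered normalization, the added constant, dim genes, probe sets, pairing, weights, the variance trend, samples fitted, the period and each array left out.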

Additional observations from a re-analysis of the deposited data

How the results depend on the processing

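Across 1090 values under another setting, 1001 kept their direction and side of the threshold, 63 lost a call, 22 gained one and 4 changed sign, none of them called. Ranges over times and cosine amplitudes are never negative, so they could not change sign. Leaving out an array of another time could not change a 40 h or 46 h difference, only its adjusted p. Values called under neither setting count as kept, so the 1001 is no measure of how stable a call is. The 46 h difference of Klf6 turned to -0.027 with values as deposited and ran from -0.045 (without 22 h replicate 2) to 0.057 over the arrays left out, with -0.0075 without 46 h replicate 1. That of Klf10 ran from -0.012 (without 46 h replicate 1) to 0.075. With array weights 1 gene was called by the cosine (Klf15), 2 at 26 h, 4 at 30 h and 4 at 34 h. All genes called rose to 1140, 3958, 6414 and 6717 of 19938 under these weights. The highest weight, 6.71, went to 22 h replicate 3 and the next was 1.61, so the weighted 22 h level rests mostly on 1 array. A period of 26 h called 2 (Klf5 and Klf15), while all genes called by the cosine were 1985, against 165 with 24 h. At 34 h the count was 3 with a constant of 64, 4 without the 30% dimmest genes and 3 with an intensity trend. All genes called at 34 h were 2139, 2267 and 2119 there, against 1882 in the main fit. With only the times compared the count was 1 at 40 h. Leaving out 1 array gave 3 to 6 calls by the F test, 0 to 4 at 34 h, 1 to 7 at 40 h and 4 to 5 at 46 h. All genes called ran from 2631 to 4685, 737 to 3179, 2273 to 5362 and 2789 to 4741 in these fits. The cause was not tested.

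With the replicate number as a replicate block, 4 genes passed the F test (Klf4, Klf5, Klf9 and Klf15), 1 at 34 h, 5 at 40 h, 5 at 46 h and 0 in the other comparisons. All genes called with the block were 3220 by the F test, 1516 at 34 h, 3778 at 40 h and 3838 at 46 h. No pairing by number was seen, though this check cannot exclude one. Deviations of arrays with the same number correlated at -0.56 to 0.49 over 45 pairs, with 15 over 0.1. Of 18 arrays, 6 correlated best with an array of their own number. Precision is limited by 3 arrays a time.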
